A study of Mus musculus with 3 samples.

Results

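Cholesterol synthesis was followed through 7 genes across the cell types of mouse skin in 2 single-cell RNA libraries. The genes were Hmgcs1, Idi1, Fdps, Fdft1, Sqle, Lss and Insig1, chosen by name from the 31053 genes listed in the files, and they are 7 of the 39 genes of a cholesterol pathway list used beside them. All but Insig1, a sterol sensor, encode enzymes of the route. The skin came from C57BL/6 mice at postnatal 7 weeks, and the study asked how treatment affects hair growth. One library was labelled control and the other metformin, a biguanide drug. A library of skin treated with Shi-Bi-Man, the third of the 3 libraries in the series, was not analysed here. The labels give no dose, route, sex, skin site or number of animals for any library, and the extraction text also speaks of organs of another species, while every gene identifier is a mouse one.

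Cells make cholesterol from acetyl-CoA through the mevalonate route, which also supplies isoprenoids for other lipids and for protein prenylation. The transcription factor SREBP-2, encoded by Srebf2, switches the enzymes on when membrane sterol is low, and INSIG proteins hold its escort SCAP in the endoplasmic reticulum when sterol is plentiful. In skin, the upper epidermis builds the lipid sheets of the barrier from cholesterol, ceramides and fatty acids, and the sebaceous gland makes the lipids of sebum. Hmgcs1 encodes the cytosolic HMG-CoA synthase at the start of the route. Idi1 encodes the isomerase of isopentenyl diphosphate, and Fdps encodes the synthase of farnesyl diphosphate. Squalene is made by squalene synthase, the product of Fdft1, and is oxidised by squalene epoxidase, the product of Sqle. Lanosterol synthase, the product of Lss, closes the first sterol ring system.

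On GRCm38, Hmgcs1 lies at chr13:119690379-119708260 and Idi1 at chr13:8885501-8892451, both on the plus strand. Fdps lies at chr3:89093588-89101959 and Fdft1 at chr14:63145150-63179578, both on the minus strand. Sqle lies at chr15:59315077-59331192, Lss at chr10:76531588-76557138 and Insig1 at chr5:28071363-28078662, all on the plus strand. The 3′ end of Fdft1 overlaps Ctsb, the gene of the protease cathepsin B, by 774 bases on the opposite strand. Fdps overlaps a predicted gene on its own strand, and Lss and Hmgcs1 have antisense neighbours. Whether counting used strand is not given in the sources used here, and the part of such neighbours in the counts was not tested. In macrophage-like cells, where Ctsb stood at 2006 CPM (transcript counts per 1000000 of the class) in control and 2407 CPM in metformin, Fdft1 was at 12.4 and 4.67 CPM, from 6 and 1 unique molecular identifiers (UMIs).

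The promoters are shown because the route is known for shared control by SREBP-2, and that control was not tested in these cells. RefSeq promoters on GRCm38.p6 matched 4 of the 7 genes, Hmgcs1, Idi1, Lss and Insig1. The 250 bases before each start were searched on both strands for TCACNCCAC, a core of the SREBP response element, and for CCAAT, the box bound by NF-Y. The motifs do not overlap in the stretches shown. Capitals mark motif letters, and ATTGG is CCAAT read from the other strand.
Hmgcs1, chr13:119690101-119690330, plus strand: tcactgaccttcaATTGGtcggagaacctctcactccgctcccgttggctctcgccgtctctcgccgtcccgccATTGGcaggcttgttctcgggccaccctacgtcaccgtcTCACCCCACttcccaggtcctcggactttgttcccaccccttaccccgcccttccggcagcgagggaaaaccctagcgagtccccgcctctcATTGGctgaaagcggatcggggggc
Lss, chr10:76531523-76531567, plus strand: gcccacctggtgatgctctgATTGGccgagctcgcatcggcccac
Insig1, chr5:28071176-28071220, plus strand: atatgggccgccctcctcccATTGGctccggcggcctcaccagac
Hmgcs1 held 1 TCACNCCAC match and 3 CCAAT matches, Lss and Insig1 held 1 CCAAT match each, and Idi1 held 2 CCAAT matches within the gene as GENCODE annotates it, so that stretch is not printed. Over all 32851 promoters of the table, 1.05% held TCACNCCAC and 33.8% held CCAAT. These matches are a description of letters.

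After filtering and removal of doublets, 10990 cells remained in control and 10778 in metformin, with median depths of 4158 and 6621 UMIs per cell. Cells fell into 33 clusters, of which 30 could be named from marker genes and 3 stayed unnamed. The members and the other cholesterol genes were kept out of the genes used for clustering. Class names end in "-like", since no annotation of the authors was used. The libraries differed in composition. Cells like hair matrix, shaft or inner root sheath numbered 32 in control and 1511 in metformin, granular-like cells numbered 189 and 36, and fibroblast-like cells numbered 3700 and 1313. In bulk sums over a class, a lower share of expressing cells and a lower level per cell cannot be told apart. All levels below are CPM, the UMIs of a gene scaled to all UMIs of the class in 1 library. Intervals are 95% exact intervals, Poisson for levels and conditional binomial for ratios, and they cover counting error only. With 1 library per agent no test between agents was possible, and agent and library cannot be told apart.

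The summed level of the 7 genes was lowest in basal-like cells and higher in each outer layer of the interfollicular epidermis. Their summed level in control was 615 CPM in basal-like cells, 1923 CPM in spinous-like cells and 3386 CPM in granular-like cells. In metformin the same layers stood at 474, 1158 and 2049 CPM. Granular-like cells thus exceeded basal-like cells 5.51-fold in control (5.34 to 5.68) and 4.32-fold in metformin (4.04 to 4.61). All 7 members were over 1.5-fold higher in granular-like than in basal-like cells in control, where 25.4% of the genes with at least 50 UMIs in the pair of classes were, and 6 of 7 were in metformin, where 24.9% of genes were. In spinous-like over basal-like cells the counts were 7 in control, against 18.5% of genes, and 6 in metformin, against 13.9%.

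The spinous-like class held a pair of clusters that differed in level. Cluster 2, led by Mt4, Krt1 and Krt16, held 836 control and 808 metformin cells, and cluster 6, led by Krt77, Krt10 and Krt78, held 712 and 332. Summed members were at 1133 CPM in control and 784 in metformin in cluster 2, and at 2652 and 1858 CPM in cluster 6. Cluster 6 exceeded cluster 2 by 2.34-fold in control and 2.37-fold in metformin, and granular-like cells exceeded cluster 6 by only 1.28-fold and 1.1-fold. The step between the 2 spinous-like clusters was therefore the widest in both libraries.

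**Figure D1:**
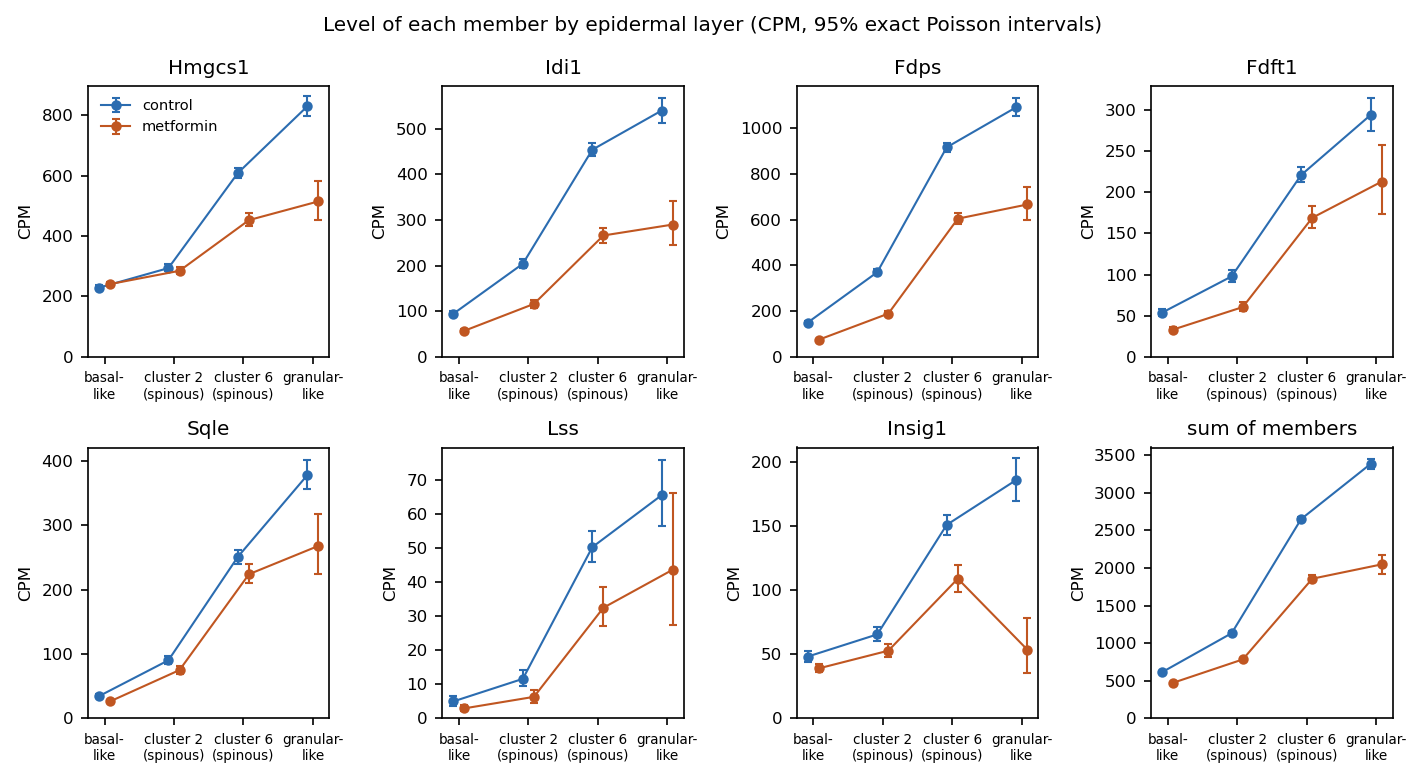
Level of each member and of their sum in basal-like cells, the 2 spinous-like clusters and granular-like cells, in CPM on linear axes from 0, with points for the control and metformin libraries and bars for 95% exact Poisson intervals. The sum climbs from 615 to 3386 CPM in control and from 474 to 2049 CPM in metformin, while Insig1 in metformin drops from 109 CPM in cluster 6 to 53.6 CPM in granular-like cells.

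Hmgcs1 had the flattest profile of the enzymes. It was at 229 CPM in basal-like, 458 CPM in spinous-like and 830 CPM in granular-like cells of the control library. In metformin it was at 241, 343 and 515 CPM. The gradient from basal-like to granular-like cells was 3.63-fold in control and 2.14-fold in metformin. Basal-like cells of the 2 libraries were close in Hmgcs1, with a ratio of metformin over control of 1.05 (1 to 1.11), and the libraries parted in the outer layers, where the ratio was 0.745 in cluster 6 (0.706 to 0.785) and 0.62 in granular-like cells (0.543 to 0.705). In cluster 2 it was 0.968 (0.914 to 1.03).

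Idi1 and Fdps, the isoprenoid enzymes, were lower in metformin in every layer. Idi1 stood at 94.4 CPM in basal-like, 334 CPM in spinous-like and 540 CPM in granular-like cells in control, and at 57.2, 168 and 290 CPM in metformin. Its ratio of metformin over control lay between 0.503 and 0.606 in these layers. Within the spinous-like class, Idi1 was at 204 CPM in control and 116 in metformin in cluster 2, and at 454 and 266 CPM in cluster 6. Fdps stood at 150, 654 and 1091 CPM in control and at 75, 333 and 666 CPM in metformin. The Fdps ratio was 0.5 in basal-like cells, 0.51 in spinous-like cells and 0.61 in granular-like cells (0.543 to 0.683). Fdps had the steeper gradient of these genes, 7.27-fold from basal-like to granular-like cells in control and 8.87-fold in metformin, against 5.72-fold and 5.07-fold for Idi1.

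Sqle and Lss had the steepest gradients of the members, and Fdft1, the step before them, a smaller one. Fdft1 was at 53.8 CPM in basal-like, 162 CPM in spinous-like and 294 CPM in granular-like cells in control, and at 33.2, 98.3 and 213 CPM in metformin. Sqle was at 34.4, 174 and 378 CPM in control and at 26.3, 127 and 268 CPM in metformin. Lss was at 4.97, 31.7 and 65.6 CPM in control and at 2.93, 15.4 and 43.7 CPM in metformin. From basal-like to granular-like cells, Sqle differed 11-fold in control and 10.2-fold in metformin, and Lss 13.2-fold and 14.9-fold. Ratios of metformin over control in granular-like cells were 0.724 for Fdft1 (0.586 to 0.886), 0.709 for Sqle (0.588 to 0.849) and 0.666 for Lss (0.407 to 1.04). The Lss interval included 1, with 22 Lss UMIs in the 36 metformin cells.

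Insig1, the sterol sensor, was higher in each outer layer in control, as the enzymes were, and departed from them in the granular-like cells of metformin. It was at 48.2 CPM in basal-like, 110 CPM in spinous-like and 186 CPM in granular-like cells of control. In metformin it was at 39, 72.2 and 53.6 CPM, the last from 27 UMIs. Its gradient from basal-like to granular-like cells was 3.86-fold in control and 1.38-fold in metformin (0.9 to 2.02), and in metformin the granular-like level was 0.493 of that in cluster 6 (0.321 to 0.727). Metformin over control was 0.808 in basal-like and 0.288 in granular-like cells (0.188 to 0.425), the lowest ratio of any member in that layer.

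Between the libraries, 4 of 7 members were over 1.5-fold lower in metformin in basal-like cells, where 2.6% of tested genes were. In spinous-like cells 5 of 7 were, against 3.85% of genes, and in granular-like cells 5 of 7, against 9.69%. Within the spinous-like class, Idi1, Fdps and Lss passed that fold in both clusters and Fdft1 in cluster 2 only. Insig1 passed it in neither, at 65.5 CPM in control and 52.8 in metformin in cluster 2, and at 151 and 109 CPM in cluster 6. Cycling basal-like cells had 3 of the 6 members with enough counts lower by that much, against 2.62% of genes. The median log2 ratio of the members was -0.70 in basal-like, -0.72 in spinous-like and -0.69 in granular-like cells, beside medians over all tested genes of 0.02, -0.00016 and 0.0033. In granular-like cells the basal keratinocyte marker list summed to 224 CPM in control and 2474 in metformin and the spinous list to 97299 and 78768 CPM, and the part of this in the ratios was not tested. Spinous-like cells had a summed ratio of 0.602 (0.59 to 0.614), while the clusters inside that class had 0.692 and 0.701, with cluster 6 a larger part of the control class, and with each library clustered alone the class ratio was 0.374. Summed over all keratinocyte-like classes the ratio was 0.541, and the geometric mean over the 8 classes was 0.714.

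**Figure D2:**
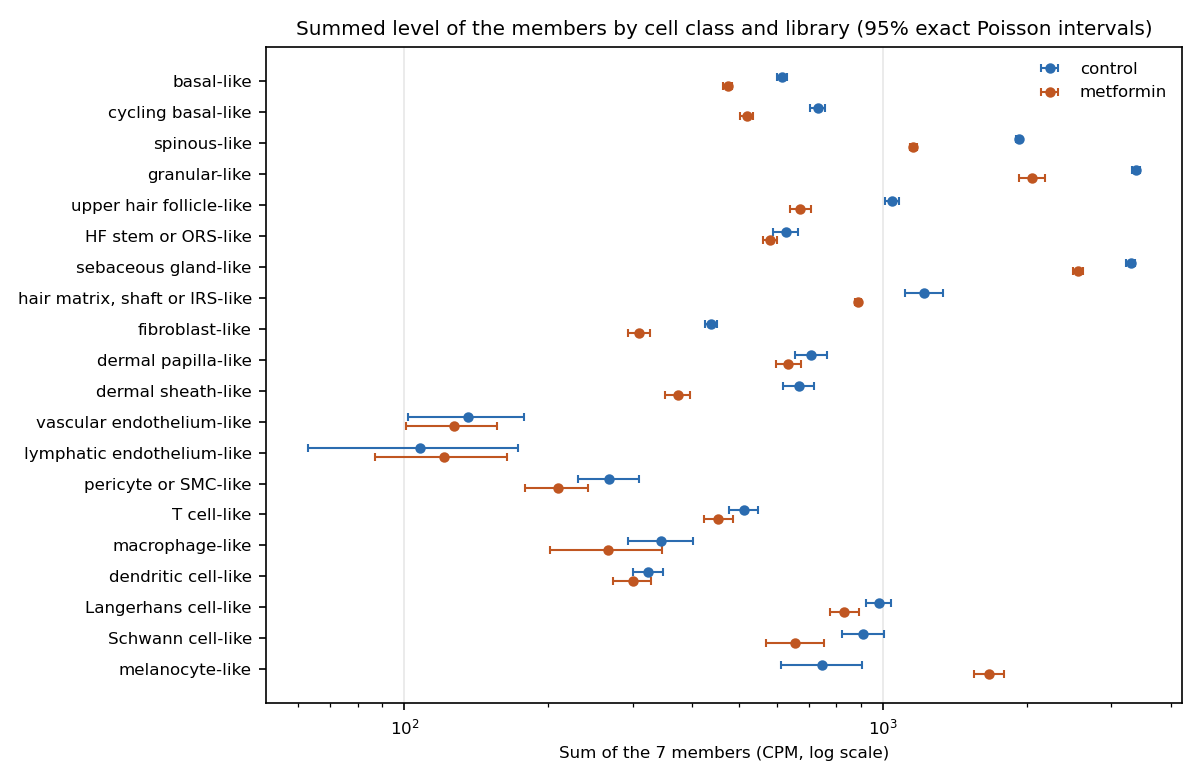
Summed level of the 7 members in each cell class, in CPM on a log axis, with a point for each library and 95% exact Poisson intervals (HF, hair follicle; ORS, outer root sheath; IRS, inner root sheath; SMC, smooth muscle cell). Granular-like and sebaceous-like cells lie at the top with 3386 and 3295 CPM in control, and lymphatic endothelium-like cells lie at the bottom with 108 CPM in control and 121 in metformin.

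Sebaceous-like cells matched granular-like cells in the control sum. They held 3295 CPM in control and 2563 in metformin, and the ratio of granular-like over sebaceous-like cells in control was 1.03 (0.997 to 1.06). All 7 members were over 1.5-fold higher than in basal-like cells in both libraries, where 28.2% of genes in control and 28.1% in metformin were. Lss stood highest here, at 98 CPM in control and 85.7 in metformin, 19.7-fold and 29.2-fold above basal-like cells. Sqle had the opposite order, with 185 CPM in sebaceous-like against 378 CPM in granular-like cells of control and 134 against 268 CPM in metformin. Between libraries 1 of 7 members passed 1.5-fold in sebaceous-like cells, Fdps at 0.66, against 3.79% of genes, and Insig1 was at 191 CPM in control and 180 in metformin, with an interval that included 1.

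Per cell the sebaceous-like class was uneven. With each cell thinned to 1500 UMIs, granular-like control cells held a median of 5 member UMIs, with a 10th percentile of 1 and a 90th of 10. Sebaceous-like control cells held a median of 2, with percentiles of 0 and 11.9, and 19.1% of them held none, against 6.38% of granular-like cells. The mean number of the 7 members detected per thinned cell was 0.784 in basal-like and 2.94 in granular-like cells in control, and 0.588 and 2.37 in metformin.

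Summed levels in follicle keratinocytes differed by class, and all were below those of cluster 6. Upper hair follicle-like cells held 1047 CPM in control and 673 in metformin, with 4 of 7 members over 1.5-fold lower in metformin, against 6.01% of genes, among them Lss at 18.5 and 7.75 CPM. Cells like hair matrix, shaft or inner root sheath held 1220 and 888 CPM, the former from 32 cells. Fdps accounted for most of that difference, at 516 CPM in control and 276 in metformin, while Hmgcs1 was at 205 and 211 CPM. In that class 2 of 7 members were over 1.5-fold lower, while 16.7% of all tested genes were lower and 19.5% higher. Its clusters differed in mix, cluster 4 with 31 control and 1203 metformin cells, cluster 23 with 0 and 217 and cluster 29 with 1 and 91. The part of this mix in the ratios was not tested. Cells like hair follicle stem cells or outer root sheath held 627 and 581 CPM, and their ratio was 0.926 (0.863 to 0.995), and none of the 7 members passed 1.5-fold lower, against 5.75% of genes. The control sum there did not differ from the basal-like sum beyond counting error, at 1.02 of it (0.954 to 1.09), and Hmgcs1 was lower, at 0.623 of its basal-like level in control and 0.672 in metformin. In that class the median log2 ratio of all tested genes was 0.198, and scaling each class to its median gene gave a ratio of 0.808.

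**Figure D3:**
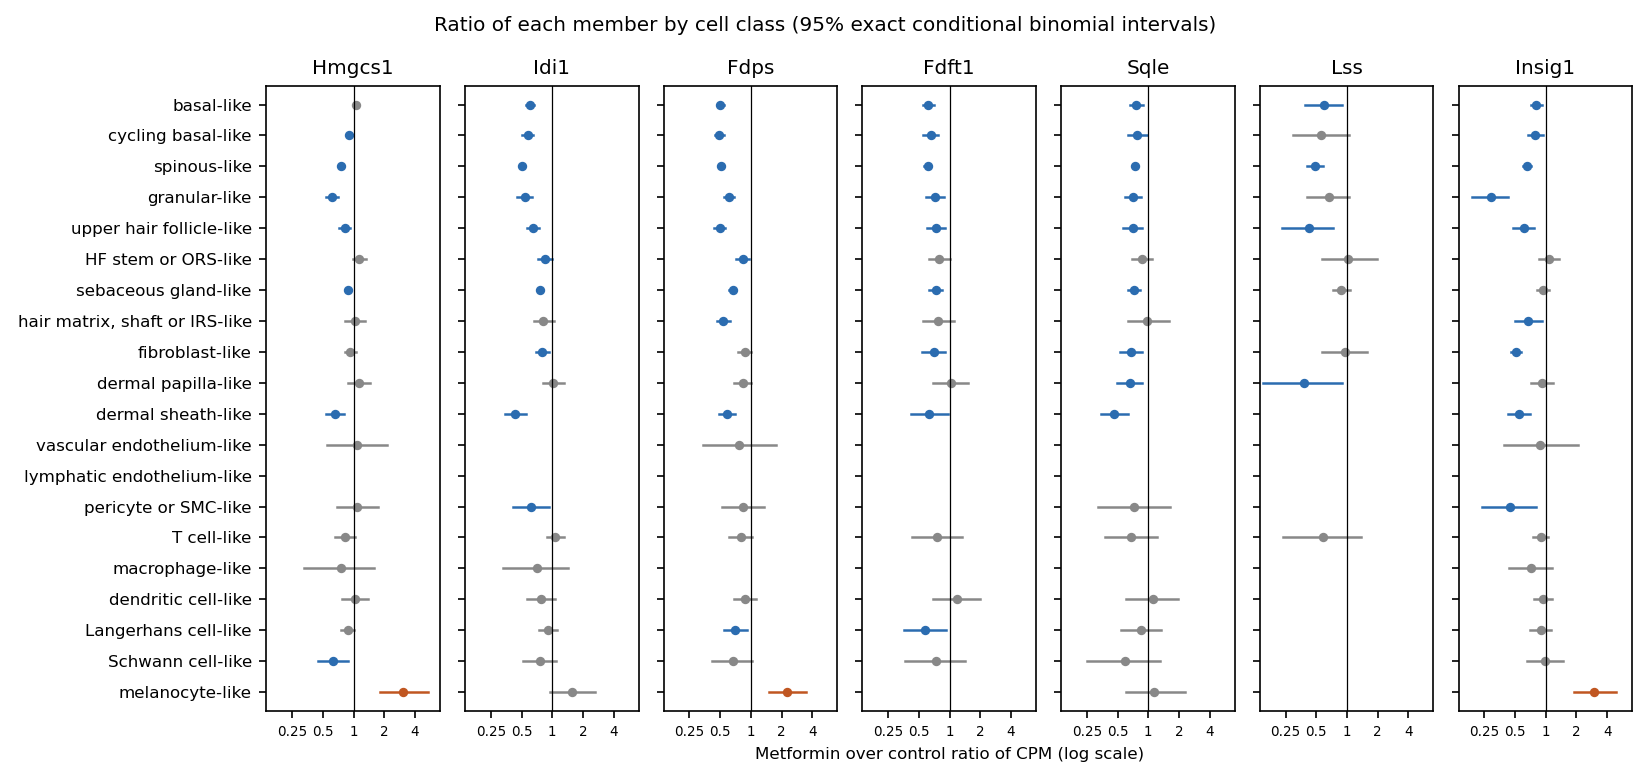
Ratio of metformin over control for each member and each cell class on a log axis, with 95% exact conditional binomial intervals and a line at 1, drawn only where each library gave at least 10 UMIs (HF, hair follicle; ORS, outer root sheath; IRS, inner root sheath; SMC, smooth muscle cell). Fdps lies at 0.5 in basal-like cells and 0.869 in fibroblast-like cells, and melanocyte-like cells lie to the right of 1, with Hmgcs1 at 3.02.

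Fibroblast-like cells held less of 5 of the 6 enzymes than basal-like cells and more Insig1, while Lss was not lower, at 1.05 of the basal-like level in control (0.714 to 1.55) and 1.71 in metformin (1.01 to 2.84). Their summed level was 437 CPM in control and 310 in metformin, 0.711 and 0.653 of the basal-like level. Insig1 was at 175 CPM in control and 89.5 in metformin, 3.64-fold and 2.3-fold above basal-like cells. It was the member that differed most between libraries in fibroblast-like cells, with a ratio of 0.51 (0.459 to 0.566), and the 1 of 7 members past 1.5-fold lower, against 6.81% of genes. Within the fibroblast-like clusters, Insig1 was at 201 and 91.4 CPM in cluster 1, 124 and 96 CPM in cluster 3 and 178 and 81.3 CPM in cluster 5, so the lower metformin level was present in all 3.

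The enzymes differed less in fibroblast-like cells. Hmgcs1 was at 86.7 CPM in control and 80.8 in metformin, and its interval included 1. Fdps was at 59.4 and 51.6 CPM, and Lss at 5.24 and 5.02 CPM, both also with intervals that included 1. Idi1 was lower in metformin at 62.2 and 49.6 CPM, as were Fdft1 at 22.3 and 15.6 CPM and Sqle at 26.1 and 17.7 CPM, with ratios of 0.796, 0.701 and 0.676. The basal keratinocyte marker list summed to 512 CPM in control and 1284 in metformin in these cells, against 28449 and 26970 CPM in basal-like cells, and its part in the ratios was not tested.

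Dermal sheath-like and dermal papilla-like cells had higher sums than fibroblast-like cells. Dermal sheath-like cells held 668 CPM in control and 373 in metformin, and their ratio was 0.558 (0.508 to 0.614), and all 6 members with enough counts were over 1.5-fold lower, against 17.1% of genes. Idi1 in these cells was at 114 and 49.9 CPM. Dermal papilla-like cells held 709 and 635 CPM, and their ratio was 0.896. Different clusters held most of that class in the 2 libraries, cluster 20 with 262 control and 15 metformin cells and cluster 16 with 86 and 337. Within cluster 16 the sums were 822 and 641 CPM. Pericyte or smooth muscle-like cells held 268 and 209 CPM, and Schwann-like cells held 910 and 656 CPM.

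Endothelial cells held the least of these transcripts. The sum was 136 CPM in control and 127 in metformin in vascular endothelium-like cells and 108 and 121 CPM in lymphatic endothelium-like cells. Vascular cells stood at 0.222 of the basal-like level in control and 0.267 in metformin. Hmgcs1 gave the most UMIs, 38.6 and 41.2 CPM in the vascular class from 15 and 28 UMIs. Idi1 was at 10.3 and 17.7 CPM, Fdps at 30.9 and 23.6 CPM and Fdft1 at 15.4 and 5.89 CPM there. Sqle was at 7.71 and 5.89 CPM, Lss at 5.14 and 7.36 CPM and Insig1 at 28.3 and 25 CPM. All 7 vascular ratios had intervals that included 1, and only Hmgcs1 reached 50 UMIs over both endothelial classes together. Differences between libraries smaller than these intervals were not detectable at this depth: the summed vascular ratio was 0.93 (0.653 to 1.33).

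Vascular cells also serve as a low point for the share of cells with a UMI, since free RNA in droplets gives counts to cells that do not express a gene. No skin cell type is known to lack cholesterol synthesis, so this share holds both free RNA and expression. Free RNA was not measured. The basal keratinocyte list summed to 684 and 987 CPM in vascular cells and to 2732 and 2453 CPM in macrophage-like cells. The source of these counts was not tested. At 1500 UMIs per cell, 15.6% of vascular control cells and 17.9% of metformin cells held a UMI of any member, against 54.9% and 45.6% of basal-like cells and 83% and 69.2% of spinous-like cells. Median depths before thinning were 2789 and 3154 UMIs in vascular cells and 7912 and 7216 in basal-like cells. Without thinning the vascular shares were 30.4% and 27.6%. Sqle was seen in 4.84% of basal-like, 20.5% of spinous-like and 42% of granular-like control cells, and in 2.51%, 14.4% and 31.4% of metformin cells.

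Immune cells differed by type. T cell-like cells held a sum of 512 CPM in control and 453 in metformin, with a ratio of 0.885 (0.804 to 0.976), which was 1.04 with doublets kept and 0.995 as a mean over cells. Insig1 led there at 168 and 150 CPM, 3.48-fold and 3.84-fold above basal-like cells. Idi1 was at 114 and 122 CPM, Hmgcs1 at 102 and 84.8 CPM and Fdps at 82.6 and 65.4 CPM. Fdft1 was at 18.6 and 13.9 CPM, Sqle at 18 and 12.2 CPM and Lss at 9.58 and 5.54 CPM. Every single-gene interval included 1, and none of the 6 members with enough counts passed 1.5-fold lower, against 5.41% of genes.

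Macrophage-like and dendritic-like cells had lower sums, and Insig1 was again prominent. Macrophage-like cells held 344 CPM in control and 266 in metformin, and dendritic-like cells held 323 and 300 CPM. Insig1 was at 155 and 112 CPM in macrophage-like cells and at 109 and 102 CPM in dendritic-like cells, while Fdps was at 24.7 and 18.7 CPM and at 77.4 and 67.9 CPM. At equal depth Insig1 was seen in 24% and 17.2% of macrophage-like cells, 18.5% and 18.7% of T cell-like cells, and 3.12% and 6.62% of vascular cells. No member in either myeloid class had an interval apart from 1 between the libraries. In dendritic-like cells 0 of the 6 members tested passed 1.5-fold lower, against 7.3% of genes.

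Langerhans-like cells, the dendritic cells that live within the epidermis, had the highest immune sum. They held 980 CPM in control and 831 in metformin, and their ratio was 0.848 (0.772 to 0.931). Hmgcs1 was at 353 and 310 CPM, Idi1 at 213 and 194 CPM, Fdps at 150 and 105 CPM and Insig1 at 159 and 142 CPM. Fdps at 0.704 (0.542 to 0.91) and Fdft1 at 0.579 (0.354 to 0.925) had intervals below 1. The basal keratinocyte marker list summed to 10324 and 7510 CPM in these cells, against 1405 and 834 CPM in T cell-like cells, and its part in the Langerhans-like levels was not tested. Hmgcs1 was above its basal-like levels of 229 and 241 CPM and below its spinous-like levels of 458 and 343 CPM.

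Melanocyte-like cells were the one class of 20 in which the interval of the summed ratio lay above 1. The sum was 747 CPM in control and 1666 in metformin, and their ratio was 2.23 (1.82 to 2.76), from 24 and 36 cells. Hmgcs1 was at 112 and 337 CPM, Fdps at 196 and 438 CPM and Insig1 at 147 and 438 CPM, and these 3 had intervals above 1. The other 4 members were also higher in metformin, with intervals that included 1. Median depth was 2470 UMIs in the control cells and 10478 in the metformin cells, the basal keratinocyte list summed to 7892 and 1009 CPM, and 4 of the 5 members with enough counts were over 1.5-fold higher, against 36% of genes. The part of these differences in the ratio was not tested. Leaving out the cell with the most member UMIs in each library gave a ratio of 2.47, and leaving out cells of over 3000 genes gave 1.4. Across the 20 classes, the interval of the summed ratio lay below 1 in 15, included 1 in 4 and lay above 1 in 1.

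Insig1 stood apart from the enzymes in its pattern over cell types. Over 36 class and library sums, which share libraries and depth, the level of each enzyme correlated with the sum of the other 6 members at 0.812 for Lss to 0.94 for Idi1, and Insig1 at 0.548. Outside the pathway list, the genes most like the summed members among 9529 compared were Fasn (0.881), the fatty acid synthase, Tecr (0.867), Pcyt2 (0.858), Selenoi (0.848), Psmb7 (0.847), Aacs (0.827), Acaca (0.821) and Mfsd2a (0.815). Tecr acts in the elongation of very long-chain fatty acids, Pcyt2 and Selenoi in phosphatidylethanolamine synthesis, and Acaca makes malonyl-CoA. Psmb7 was nearly flat over the layers of control, at 139 CPM in basal-like, 151 in spinous-like and 158 in granular-like cells. Mfsd2a was lower in granular-like than in basal-like control cells, at 28.5 against 38.3 CPM. The others of these genes were higher in each outer layer of control. Among the 50 most like of the 9529 genes, 12 were other genes of the 39-gene pathway list, all of them enzymes or regulators. Listed genes outside those groups also ran the opposite way, the lowest being Mylip (-0.762), Nr1h2 (-0.684) and Abcg1 (-0.551).

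**Figure D4:**
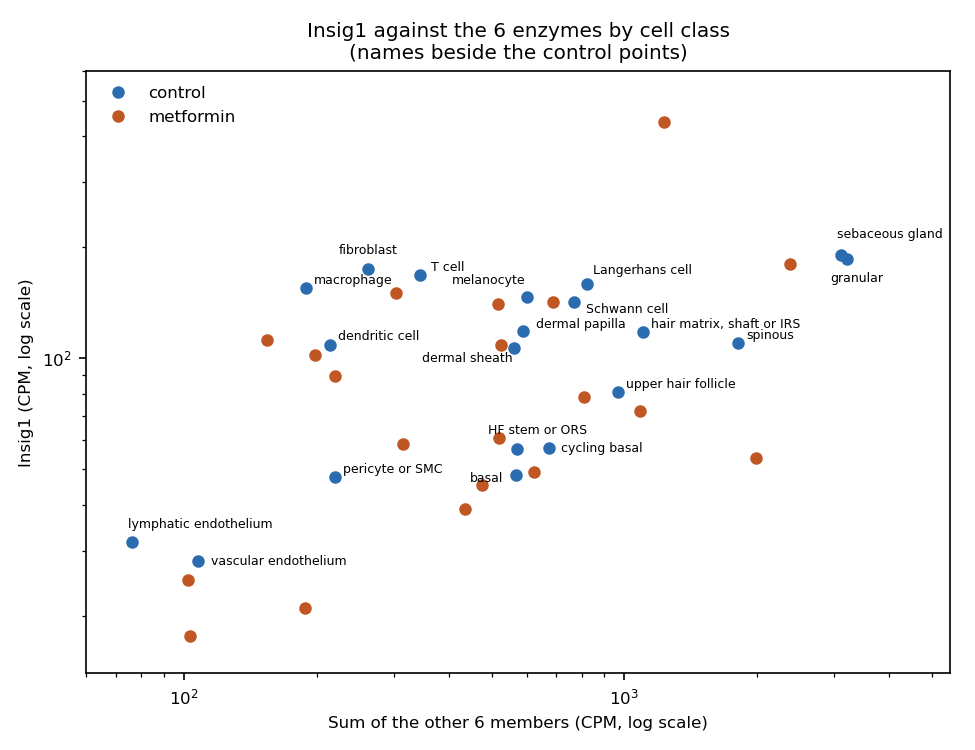
Insig1 level against the sum of the other 6 members for each cell class and library, both in CPM on log axes, 1 point per class and library. Fibroblast-like and immune classes lie high on the Insig1 axis for their enzyme sum, with fibroblast-like cells of control at 175 CPM, and granular-like cells of metformin lie low at 53.6 CPM.

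The rest of the route showed the same layer order. Of the 21 enzymes of the pathway list, 20 were over 1.5-fold higher in granular-like than in basal-like cells in control, and 20 of the 20 with enough counts were in metformin, against 25.4% and 24.9% of all genes. The exception in control was Lbr, a sterol reductase of the nuclear membrane, with a ratio of 0.943. Mvd, which makes isopentenyl diphosphate, was at 7.42 CPM in basal-like and 174 CPM in granular-like cells of control, and Pmvk, the kinase before it, at 37.8 and 466 CPM. Cyp51, which demethylates lanosterol, was at 65.1 and 368 CPM.

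Sebaceous-like cells had 20 of the 21 enzymes higher than basal-like cells in control and 19 of 21 in metformin, against 28.2% and 28.1% of all genes. Sc5d, the sterol desaturase late in the route, was lower, at 5.89 CPM against 23.9 CPM in basal-like cells of control. Soat1, which esterifies cholesterol, was at 1061 and 737 CPM in sebaceous-like cells and below 1 CPM in basal-like cells.

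**Figure D5:**
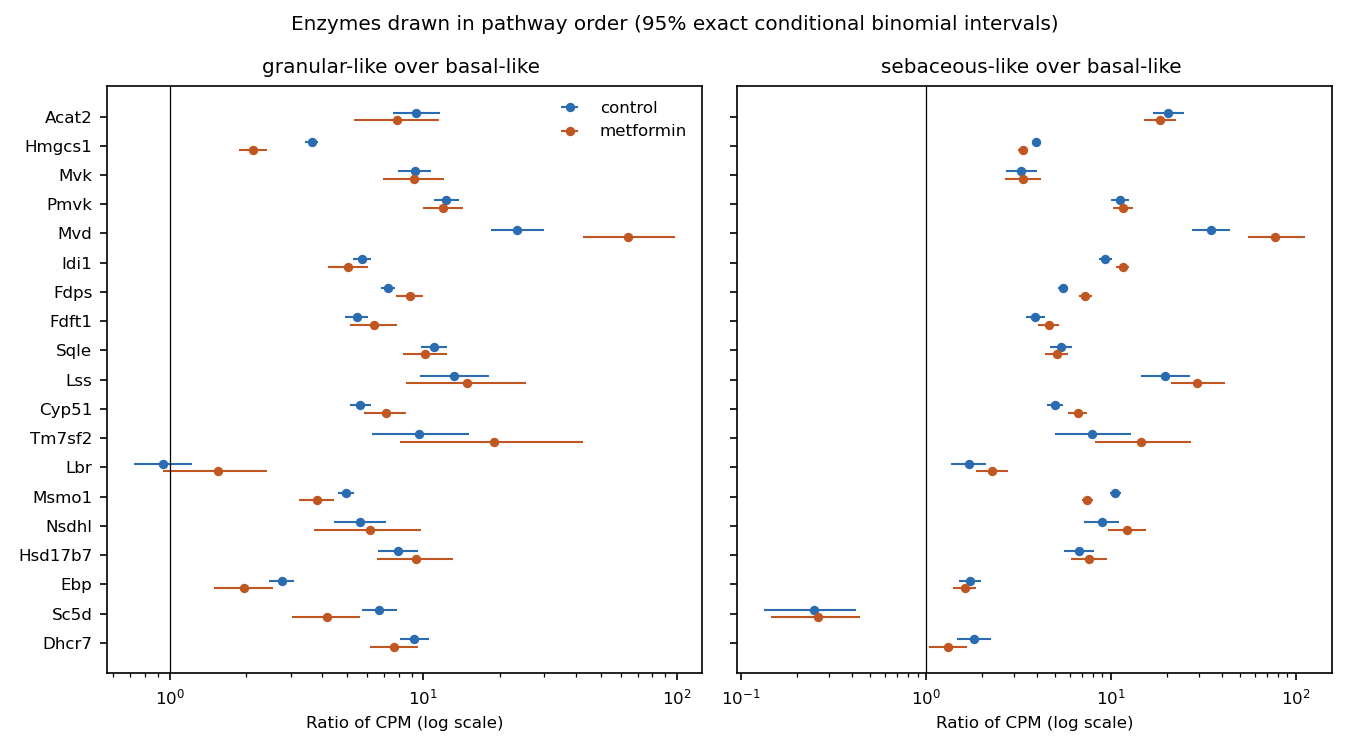
Ratio of CPM in granular-like over basal-like cells (left) and sebaceous-like over basal-like cells (right) for 19 enzymes in pathway order, on log axes, with a point for each library, 95% exact conditional binomial intervals and a line at 1. Lbr lies at 0.943 in the left panel and Sc5d at 0.247 in the right panel in control, and Lss lies at 13.2 and 19.7.

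Between libraries, genes outside the 7 members were also lower in metformin in the epidermis, though few passed 1.5-fold in cycling basal-like cells. Of the 21 other enzymes and regulators of the list, 7 of the 20 with enough counts were over 1.5-fold lower in basal-like cells, against 2.6% of all genes, 9 of 21 in spinous-like cells, against 3.85%, 6 of 20 in granular-like cells, against 9.69%, and 4 of 20 in sebaceous-like cells, against 3.79%. In cycling basal-like cells 1 of 19 was, against 2.62%, with a median log2 ratio of -0.348. Upper hair follicle-like cells had 3 of 19, against 6.01%, and stem or outer root sheath-like cells 2 of 20, against 5.75%. Cells like hair matrix, shaft or inner root sheath had 7 of 21, against 16.7%. Over the whole enzyme list, which includes 6 members, 11 of 20 with enough counts were over 1.5-fold lower in basal-like cells. In cycling basal-like cells 4 of 18 were, in spinous-like 13 of 21, in granular-like 10 of 21 and in sebaceous-like 5 of 20. In basal-like cells Mvd was at 7.42 CPM in control and 2.3 in metformin, Nsdhl at 11.4 and 7.08 CPM and Cyp51 at 65.1 and 38 CPM. Msmo1, Ebp, Sc5d and Dhcr7 did not pass 1.5-fold there, with Sc5d at 23.9 and 23.3 CPM. Srebf2, which encodes SREBP-2, was at 89.2 and 65.6 CPM in basal-like cells and at 181 and 177 CPM in granular-like cells. Stard4, a sterol carrier, was at 21.8 and 10.1 CPM in basal-like cells, and the efflux pump gene Abca1 was at 7.05 and 12.1 CPM. Of the 11 genes of uptake, ester storage, efflux and sterol sensing in the list, 7 had enough counts in basal-like cells. Of these, 3 were over 1.5-fold higher in metformin and 1 lower, against 2.55% and 2.6% of all genes.

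Of the broad groups, keratinocytes had the most pathway genes lower in metformin, in a sum over classes of unequal mix. There 21 of the 38 pathway genes with enough counts were over 1.5-fold lower and 2 higher, while 10.7% of all tested genes were lower and 21.5% higher. Those furthest from 1 were Scarb1, the high density lipoprotein receptor, at 2.04 CPM in control and 7.41 in metformin, Hsd17b7 at 53.8 and 20.3 CPM, Mvd at 60.7 and 23.8 CPM, Mvk at 90.3 and 37.6 CPM, Fdps at 476 and 209 CPM and Tm7sf2 at 8.52 and 3.83 CPM. Outside these groups, 14 of the 34 pathway genes with enough counts were lower in dermal sheath-like cells, against 17.1% of genes. In pericyte or smooth muscle-like cells 5 of 12 were, against 6.01%, and in Schwann-like cells 4 of 10, against 11.7%. Dermal papilla-like cells had 4 of 33 lower and 6 higher, against 13.1% and 23% of genes. Melanocyte-like cells had 0 of 13 lower and 8 higher, against 11.7% and 36%. In basal-like cells alone Scarb1 was at 1.27 and 1.08 CPM. In fibroblast-like cells 5 of the 38 pathway genes with enough counts were lower and 1 higher, against 6.81% and 5.5% of genes. Among those lower, beside Insig1, Hsd17b7 was at 27.1 and 16.5 CPM and Acat2 at 8.91 and 5.42 CPM.

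Endothelial and immune groups had at most 2 pathway genes past 1.5-fold in either direction. In endothelium 0 of the 13 with enough counts were lower and 2 higher, Pmvk at 23.8 and 42.2 CPM and Abcg1 at 27.4 and 41.3 CPM. Both had intervals that included 1, and 6.19% of all tested genes were lower and 5.68% higher. In T cell-like cells 2 of the 29 with enough counts were lower and 0 higher, against 5.41% and 5.59% of genes. The 2 were Apoe at 720 and 464 CPM and Mvk at 19.8 and 12.7 CPM. In myeloid cells 0 of the 33 with enough counts were lower and 0 higher, against 5.72% and 5.35% of genes. In Langerhans-like cells alone 2 of 24 were lower and 4 higher, against 4.93% and 7.46% of genes. Dendritic-like cells had 0 of 27 lower and 2 higher, against 7.3% and 5.34%. Macrophage-like cells had 0 of 5 lower and 0 higher, against 11.9% and 4.9%. The counts of the broad groups depended on the processing. With doublets kept 7 were lower in myeloid cells, and with each library clustered alone 9 were lower in T cell-like cells.

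Paralogs of the members had other patterns. Insig2, the other sterol sensor of this family, was at 180 and 155 CPM in upper hair follicle-like cells, at 76.8 and 210 CPM in melanocyte-like cells and at 41 and 38.9 CPM in basal-like cells. Idi2 gave at most 1 UMI in any class of either library.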

How the data were processed

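Skin cells of 1 control and 1 metformin library were analysed from the UMI counts per gene and cell deposited by the authors, which the submitters' processing notes ascribe to Cell Ranger 4.0.0 on mm10. The authors deposited counts that were not normalised, with at least 500 UMIs in every barcode. The 7 members, the pathway list and the marker lists were chosen with earlier results of these data known. Kept cells had 300 genes or more, 800 UMIs or more and a mitochondrial share of 8% or less, and no upper limit on genes was set. Scrublet with an expected rate of 8% marked 389 control cells (3.42%) and 680 metformin cells (5.93%) as doublets, and these were removed. The libraries held 71345558 UMIs in 12108 barcodes and 92341365 UMIs in 12092 barcodes before filtering. The libraries shared 41 barcodes, 35 of them among kept cells, which were treated as separate cells.

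Cells were clustered jointly on 2000 variable genes, 30 principal components and a graph of 20 neighbours at Leiden resolution 1. Clusters were named from 24 lists holding 206 markers, all of which matched a gene. The naming rule was set after clusters were seen, with cycling treated as a state and not a type, and 3 clusters stayed unnamed because markers of another class led them or because they mixed classes. For each class, the counts of its cells in 1 library were added up and scaled to CPM. Intervals were exact at 95%, and a count of 0 was read with a floor of 3 counts. A gene was counted as higher or lower past 1.5-fold, among genes with at least 50 UMIs in both sums together, and no test was made.

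All 7 members were named in every class. From the pathway list, up to 6 genes per broad class were named by the largest ratio past 1.5-fold, with the paralogs Idi2 and Insig2 and the 8 most like genes by Pearson correlation of log2(CPM + 10) over sums of at least 50 cells. Some genes that the rule names are not reported here. Other pathway genes given with values were chosen after their values were seen. Shares of cells were taken after thinning each cell to 1500 UMIs, leaving out shallower cells. Alternatives changed the gene cap, mitochondrial limit, doublet removal, resolution, joint clustering, scaling, weighting of cells, fold, count minimum and thinning depth. The count method was checked on simulated data. Python 3.11.15, numpy 2.4.6, scipy 1.17.1, pandas 2.3.3, scanpy 1.11.5, scikit-learn 1.9.0, leidenalg 0.10.2 and igraph 0.11.9 were used.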

Additional observations from a re-analysis of the deposited data

Results flagged for a closer look

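The ratio of metformin over control pointed in opposite directions in different cell classes for 4 results, with 1 library per agent, so the differences between classes were not tested. Hmgcs1 had a ratio of 0.62 in granular-like cells and 3.02 in melanocyte-like cells. Fdps had a ratio of 0.491 in cycling basal-like cells and 2.24 in melanocyte-like cells. Insig1 had a ratio of 0.288 in granular-like cells and 2.99 in melanocyte-like cells. The summed members had a ratio of 0.558 in dermal sheath-like cells and 2.23 in melanocyte-like cells. Melanocyte-like cells numbered 24 in control and 36 in metformin.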

How the results depend on the processing

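No paired analysis was possible because each agent had 1 library. Of 180 recomputed ratios of the summed members, 147 stayed within their counting interval and 175 kept their direction. Of the 5 that did not, 2 had an interval below 1 at first, in Schwann-like and T cell-like cells. Of 1094 single-gene ratios 1006 kept their direction. All 42 recomputed ratios of granular-like, spinous-like or vascular over basal-like cells did too, and 21 of them stayed within their counting interval. Where a value moved, the cause was not tested. Depth limits the endothelial, macrophage-like and melanocyte-like ratios most, and granular-like cells of metformin numbered between 26 and 217 over the alternatives.

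With cells of over 3000 genes left out, granular-like over basal-like was 4.52 in control and 5.09 in metformin and spinous-like over basal-like 2.06 and 1.74. The ratios of metformin over control became 0.97 in Langerhans-like, 1 in Schwann-like, 0.858 in granular-like, 1.4 in melanocyte-like, 0.617 in sebaceous-like and 0.646 in spinous-like cells, with 1 pathway gene lower in T cells and 1 higher in endothelium, and shares of 73.6% and 60.6% of spinous-like cells with a member. At resolution 2, granular-like over basal-like was 5.08 in control, spinous-like over basal-like 3.31 and 2.56, the granular-like ratio 0.677 and the T cell count 1. With 20% mitochondrial UMIs allowed, granular-like over basal-like was 5.13 and spinous-like over basal-like 3.27 in control, and the ratios were 0.656 in granular-like, 0.544 in macrophage-like, 0.965 in pericyte-like and 0.58 in spinous-like cells, with counts of 0 lower in T cells and 1 lower in myeloid cells.

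With doublets kept, granular-like over basal-like was 5.21 in control, spinous-like over basal-like 3.81 and 3.17 and vascular over basal-like 0.297 and 0.359. The ratios were then 0.755 in Langerhans-like, 0.865 in Schwann-like, 1.04 in T cell-like, 0.615 in dermal sheath-like, 0.677 in granular-like, 0.434 in macrophage-like and 0.64 in spinous-like cells, the counts 2 higher and 0 lower in T cells, 4 higher in endothelium, 4 higher in keratinocytes and 7 lower in myeloid cells, and the spinous-like shares 89.7% and 78.3%. With each library clustered alone, spinous-like over basal-like was 3.76 and 1.82, and the ratios were 0.782 in T cell-like, 0.648 in dermal sheath-like, 0.758 in fibroblast-like, 0.648 in granular-like, 3.31 in melanocyte-like, 0.374 in spinous-like and 0.713 in upper hair follicle-like cells, with 9 genes lower in T cells and 3 higher in myeloid cells. With the members kept among the clustering genes, granular-like over basal-like was 5.22 and spinous-like over basal-like 3.29 in control, and the ratios were 0.678 in granular-like and 0.576 in spinous-like cells.

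Scaled to the median gene, the ratios were 0.814 in dermal papilla-like, 0.808 in stem or outer root sheath-like and 1.79 in melanocyte-like cells, with 1 endothelial gene higher. As a mean over cells, granular-like over basal-like was 4.79 in metformin, spinous-like over basal-like 2.97 and 2.31, and the ratios 0.995 in T cell-like and 0.692 in granular-like cells. At 2-fold, 0 genes were lower in T cells, 0 higher in endothelium, 0 higher and 0 lower in fibroblasts, and 1 higher and 10 lower in keratinocytes. At a minimum of 20 counts, 7 were higher and 1 lower in endothelium and 1 lower in myeloid cells, and with no minimum 6 were lower in T cells, 11 higher and 4 lower in endothelium and 1 higher and 1 lower in myeloid cells. Unthinned shares were 99.2% and 97.2% of spinous-like and 30.4% and 27.6% of vascular cells. Thinned to 1000 UMIs they were 72.3% and 57.1% of spinous-like cells and 10.4% of metformin vascular cells, and at 3000 UMIs 94.2% and 84.7% of spinous-like cells. Chosen after seeing the data, the geometric mean over the 8 keratinocyte classes gave 0.714, and leaving out the cell with the most member UMIs in each library moved none of the 20 class ratios beyond its interval.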

Other observations

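The 3 unnamed clusters held values that belong to no comparison above. Cluster 13, led by Gpx3, Plac8 and Igfbp6, had a member sum of 290 CPM in control and 181 in metformin, with Insig1 at 106 and 38.1 CPM. Cluster 15, led by Sostdc1, Defb1 and Vsnl1, had sums of 599 and 407 CPM, with Insig1 at 46.5 and 28.1 CPM. Cluster 30, led by the T cell genes Cd3e, Cd7 and Trdc and mixed with basal keratinocyte markers, had sums of 675 and 571 CPM, with Insig1 at 84.7 and 82.1 CPM. Srebf1, the fatty acid counterpart of Srebf2, was at 190 and 194 CPM in sebaceous-like cells and at 33.4 and 27.1 CPM in basal-like cells.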
